A study of Rattus norvegicus with 6 samples.

Results

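Collagens are the triple-helical proteins that make up much of the extracellular matrix of the heart. The members described here are the 41 genes whose symbol in the platform annotation has the form Col, a number, a and a number, read by 58 of the 31042 probe sets tested and drawn from 14217 genes with a symbol of their own. Where a gene had several probe sets, as 14 of the 41 did, its brightest by the mean of the 6 arrays was taken. The members fall into 11 fibrillar chains, 5 basement membrane chains of type IV and 25 other chains. Of the 44 genes of this form in the rat RefSeq table of assembly GRCr8, the other 3, Col4a3, Col6a4 and Col28a1, were not analysed here.

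Expression was measured on 6 Affymetrix arrays of ventricular myocytes cultured from Wistar rats 1 to 2 days old, in 3 conditions of 2 arrays. The first condition was phenylephrine at 50 µmol/l, an α1-adrenergic agonist that makes cultured myocytes grow. The treatment text of those arrays also names endothelin-1 and angiotensin-II among the study's agents, and the sample titles name phenylephrine. The second was biaxial stretch to 112% for 24 h on a silicone membrane coated with type I collagen, and the third was no treatment. All cells had been separated from fibroblasts on a Percoll gradient and were grown with serum, and the stretched cells spent 24 h without serum before the stretch. For the other cells the labels leave out the growth surface, the length of the phenylephrine treatment and any serum-free period. Against control or phenylephrine, stretch therefore cannot be told apart from its surface, its serum-free period or its time in culture. RNA came from combined preparations, and whether both arrays of a condition came from separate cultures is not stated. The p-values therefore describe the spread between these arrays only, which may be technical.

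A collagen molecule is a trimer of chains. Fibrillar types I, III and V form the tension-bearing fibres between cells and are made mostly by fibroblasts in heart. Type IV chains form a mesh in the basement membrane that wraps each myocyte and capillary, and the multiplexin types XV and XVIII sit in or beside that membrane. Type VI forms beaded filaments at the cell surface, and the fibril-associated types decorate fibrils.

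Values are log2 signals as deposited, differences are between group means and carry the standard error (SE) from 1 limma fit to all 6 arrays, and adjusted p-values are Benjamini-Hochberg values of that fit over 31042 probe sets, with a threshold of 0.05. Every mean rests on n = 2 arrays. Signals of different probe sets do not order genes by their expression, so differences are taken within each gene. Summed linear signals of marker lists, given further below, weigh the brightest probe sets most and do not measure the amount of a cell type. The array medians lay between 8.30 and 8.33 log2. The 12 myocyte markers measured had means of 13.18 to 14.78 log2 over the 6 arrays, near the top of the range. The 16 fibroblast markers had means of 7.82 (Fap) to 12.73 (Postn), with Dcn at 12.53 and Fn1 at 12.35. No fibroblast marker could be called absent because the table holds no detection calls.

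With phenylephrine 6 of the 41 collagen genes rose and 2 fell, while 2.41% of all genes rose and 2.36% fell. Those that rose were the type IV chains Col4a1, Col4a2 and Col4a4, the multiplexin Col18a1 and the fibril-associated chains Col12a1 and Col19a1. Those that fell were Col3a1, the single chain of fibrillar type III, and Col8a2, a chain of the short-chain network type VIII. With stretch limma called 0 of 41, against 0.521% of all genes in either direction, and 6 had an unadjusted p under 0.05, of which 1 was higher and 5 were lower. The stretch count depended on the model. With a term for the replicate number, whose meaning the labels do not give, it was 4, and 1028 of 31042 probe sets were called. Col12a1 was then called higher and Col6a1, Col6a2 and Col8a2 lower. The last section gives the other counts of that fit, which were higher too. In the direct comparison 5 genes were lower under stretch than under phenylephrine and limma called 0 higher. At an unadjusted p under 0.05 there were 7 lower and 4 higher, 11 of 41, beside 14.6% of all genes in either direction. At the adjusted threshold 0.837% of all genes were lower and 0.999% higher in that comparison. Both treatments are set against the same 2 control arrays, so their differences from control are not independent of each other.

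**Figure D1:**
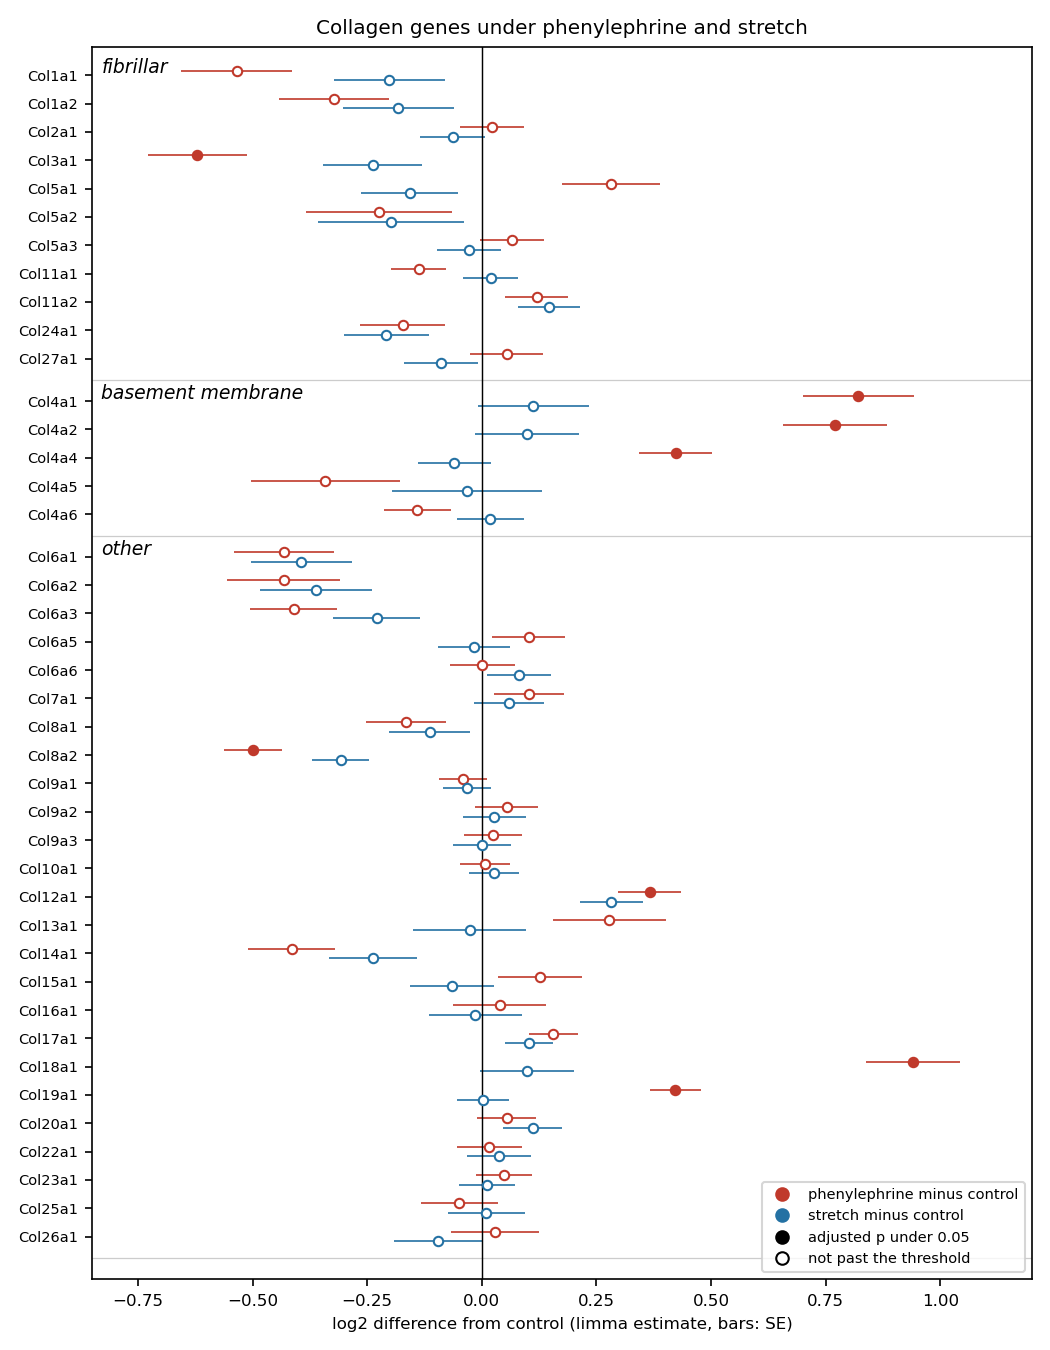
Log2 difference from control of each of the 41 collagen genes, with phenylephrine in red and stretch in blue. Points are limma estimates, bars are SE and filled points passed an adjusted p of 0.05. Phenylephrine points range from -0.62 (Col3a1) to 0.94 (Col18a1), and stretch points from -0.39 (Col6a1) to 0.28 (Col12a1), all unfilled.

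The phenylephrine count depended on the control arrays. Without control replicate 1 the count was 2, Col18a1 and Col8a2, and without control replicate 2 it was 0, where the fit as a whole called 189 probe sets in place of 1117. The estimates of the 8 genes kept their direction in each omission. For Col18a1, for example, they stayed between 0.87 and 1.01 log2.

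Of the 5 basement membrane chains, 3 rose with phenylephrine, while Col4a5 and Col4a6 read below control and did not pass. Col4a1 and Col4a2 encode the chains of the common type IV trimer. Col4a1 read 12.65 and 12.54 log2 with phenylephrine, 11.90 and 11.88 with stretch and 11.89 and 11.67 in control. Both phenylephrine arrays lay above all other arrays, and the stretch arrays overlapped the controls. The rise with phenylephrine was 1.77-fold (0.82 ± 0.12 log2, SE; adjusted p = 0.0129). Col4a2 read 12.60 and 12.58 with phenylephrine, 11.83 and 12.00 with stretch and 11.80 and 11.84 in control. Its pattern was that of Col4a1, and its rise was 1.71-fold (0.77 ± 0.11; adjusted p = 0.0128). With stretch the differences were 0.11 ± 0.12 for Col4a1 and 0.10 ± 0.11 for Col4a2, neither past the threshold. Set directly against phenylephrine, stretched cells were lower, with differences of -0.71 ± 0.12 for Col4a1 (adjusted p = 0.0381) and -0.67 ± 0.11 for Col4a2 (adjusted p = 0.0371).

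The remaining type IV chains belong to trimers found mainly in kidney, eye, ear and lung, and in smooth muscle for the fifth and sixth chains. Col4a4 read 8.76 and 8.56 log2 with phenylephrine, 8.17 and 8.19 with stretch and 8.23 and 8.25 in control. It rose 1.34-fold with phenylephrine (0.42 ± 0.08; adjusted p = 0.032), close to the median signal of the array, and was lower under stretch than under phenylephrine (-0.48 ± 0.08; adjusted p = 0.0355). The phenylephrine call of Col4a4 was lost with only the 4 arrays compared, without phenylephrine replicate 1 and without either control, with estimates of 0.32 to 0.52. Col4a5 did not pass. It read 11.23 and 10.92 with phenylephrine, 11.52 and 11.24 with stretch and 11.54 and 11.29 in control (-0.34 ± 0.16 for phenylephrine; adjusted p = 0.354). Replicate 2 was the lower array in each condition, so the phenylephrine range reached close to the control range. Col4a6 differed from control by -0.14 ± 0.07 with phenylephrine and by 0.02 ± 0.07 with stretch, and neither passed. Its dimmer second probe set gave -0.33 ± 0.10 with phenylephrine (adjusted p = 0.129). For Col4a5 and Col4a6 both phenylephrine arrays lay below both controls. With the replicate term Col4a5 was called lower with phenylephrine, against control and against stretch. Over the 5 chains the median difference was 0.42 with phenylephrine, which is the value of Col4a4. It was 0.52 without phenylephrine replicate 2 and 0.32 without phenylephrine replicate 1. With stretch the median was 0.02. The medians over all genes were 0.0020 with phenylephrine and 0.0043 with stretch. The stretch median was 0.077 without control replicate 1, 0.041 without stretch replicate 2, 0.0030 without control replicate 2 and -0.0039 without stretch replicate 1, so it had no stable sign.

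Col18a1, whose C-terminal fragment is endostatin, had the largest collagen response to phenylephrine. It read 10.58 and 10.45 log2 with phenylephrine, 9.70 and 9.65 with stretch and 9.59 and 9.55 in control. The phenylephrine arrays stood clear of the other 4, and the stretch arrays were slightly above control. The rise with phenylephrine was 1.92-fold (0.94 ± 0.10; adjusted p = 0.00427). With stretch the difference was 0.10 ± 0.10, and stretched cells were 1.79-fold lower than phenylephrine cells (-0.84 ± 0.10; adjusted p = 0.012). Col15a1, the other multiplexin, read 9.75 and 9.74 with phenylephrine, 9.58 and 9.52 with stretch and 9.63 and 9.60 in control (0.13 ± 0.09 for phenylephrine; adjusted p = 0.57), and did not pass.

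Of the 41 genes, 32 had an entry in the RefSeq promoter table of GRCr8, which gives 250 bases before and 50 bases after a gene's start. The windows below belong to the type IV chains and the multiplexin that rose with phenylephrine and to Col8a2, which fell. The starts of Col4a1 and Col4a2 lie on opposite strands 77 bases apart, so their windows share 176 bases and the second is in that stretch the reverse complement of the first. Col4a4 has a like arrangement with its neighbour Col4a3, whose windows share 88 bases. The coordinates on GRCr8 are chr16:84885347-84885646 on the plus strand for Col4a1, chr16:84885471-84885770 on the minus strand for Col4a2 and chr20:11473395-11473694 on the plus strand for Col18a1. For Col4a4 they are chr9:91323528-91323827 on the minus strand, and for Col8a2 chr5:143870519-143870818 on the plus strand. Each is written 5′ to 3′ in the direction of its gene. Capitals mark matches on either strand to the CCAAT box (CCAAT), the GC box (GGGCGG) and the TATA box (TATAAA), where neighbouring matches may run together.
Col4a1: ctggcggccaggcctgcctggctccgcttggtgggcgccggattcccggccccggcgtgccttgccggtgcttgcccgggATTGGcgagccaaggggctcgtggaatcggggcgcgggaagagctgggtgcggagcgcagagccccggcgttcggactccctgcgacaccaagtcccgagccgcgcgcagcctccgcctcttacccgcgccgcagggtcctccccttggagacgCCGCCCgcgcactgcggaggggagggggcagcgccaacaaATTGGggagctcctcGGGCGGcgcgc
Col4a2: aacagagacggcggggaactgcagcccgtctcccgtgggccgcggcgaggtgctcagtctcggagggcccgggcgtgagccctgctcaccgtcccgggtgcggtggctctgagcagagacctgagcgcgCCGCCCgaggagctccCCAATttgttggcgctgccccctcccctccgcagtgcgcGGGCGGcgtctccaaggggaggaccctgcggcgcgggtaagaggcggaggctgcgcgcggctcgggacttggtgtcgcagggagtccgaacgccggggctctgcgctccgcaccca
Col18a1: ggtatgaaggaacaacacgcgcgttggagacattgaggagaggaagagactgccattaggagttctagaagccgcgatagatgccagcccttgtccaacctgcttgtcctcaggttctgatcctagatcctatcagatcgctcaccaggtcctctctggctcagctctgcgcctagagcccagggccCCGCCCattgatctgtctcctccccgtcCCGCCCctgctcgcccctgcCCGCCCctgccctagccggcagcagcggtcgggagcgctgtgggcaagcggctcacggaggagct
Col4a4: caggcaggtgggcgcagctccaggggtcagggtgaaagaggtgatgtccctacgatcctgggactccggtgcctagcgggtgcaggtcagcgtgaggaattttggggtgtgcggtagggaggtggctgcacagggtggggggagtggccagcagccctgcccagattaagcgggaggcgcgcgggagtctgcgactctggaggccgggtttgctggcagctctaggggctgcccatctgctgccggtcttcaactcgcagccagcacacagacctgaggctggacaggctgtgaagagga
Col8a2: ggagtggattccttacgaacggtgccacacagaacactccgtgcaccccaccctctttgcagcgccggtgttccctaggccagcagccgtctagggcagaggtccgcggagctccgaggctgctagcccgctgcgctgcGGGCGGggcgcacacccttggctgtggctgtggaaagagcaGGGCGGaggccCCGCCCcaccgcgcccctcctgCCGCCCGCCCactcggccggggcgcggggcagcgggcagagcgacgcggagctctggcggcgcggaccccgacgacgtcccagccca

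The stretch shared by Col4a1 and Col4a2 carried 1 CCAAT match and 2 GGGCGG matches. Col4a1 had a further CCAAT match outside it, 170 bases before its start. Col18a1 had 3 GGGCGG matches, 15, 35 and 63 bases before its start, Col8a2 had 5, and Col4a4 had 0 matches to any of the 3 motifs. None of the 5 windows held TATAAA. Of 35 collagen promoter windows in the table, some of them alternative starts of 1 gene, 54.3% held GGGCGG, against 33.1% of all 33469 windows. For CCAAT the shares were 28.6% and 37.5%, and for TATAAA 11.4% and 14.2%. Matches are a description of these letters, and genes that rose and a gene that fell both held GGGCGG.

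**Figure D2:**
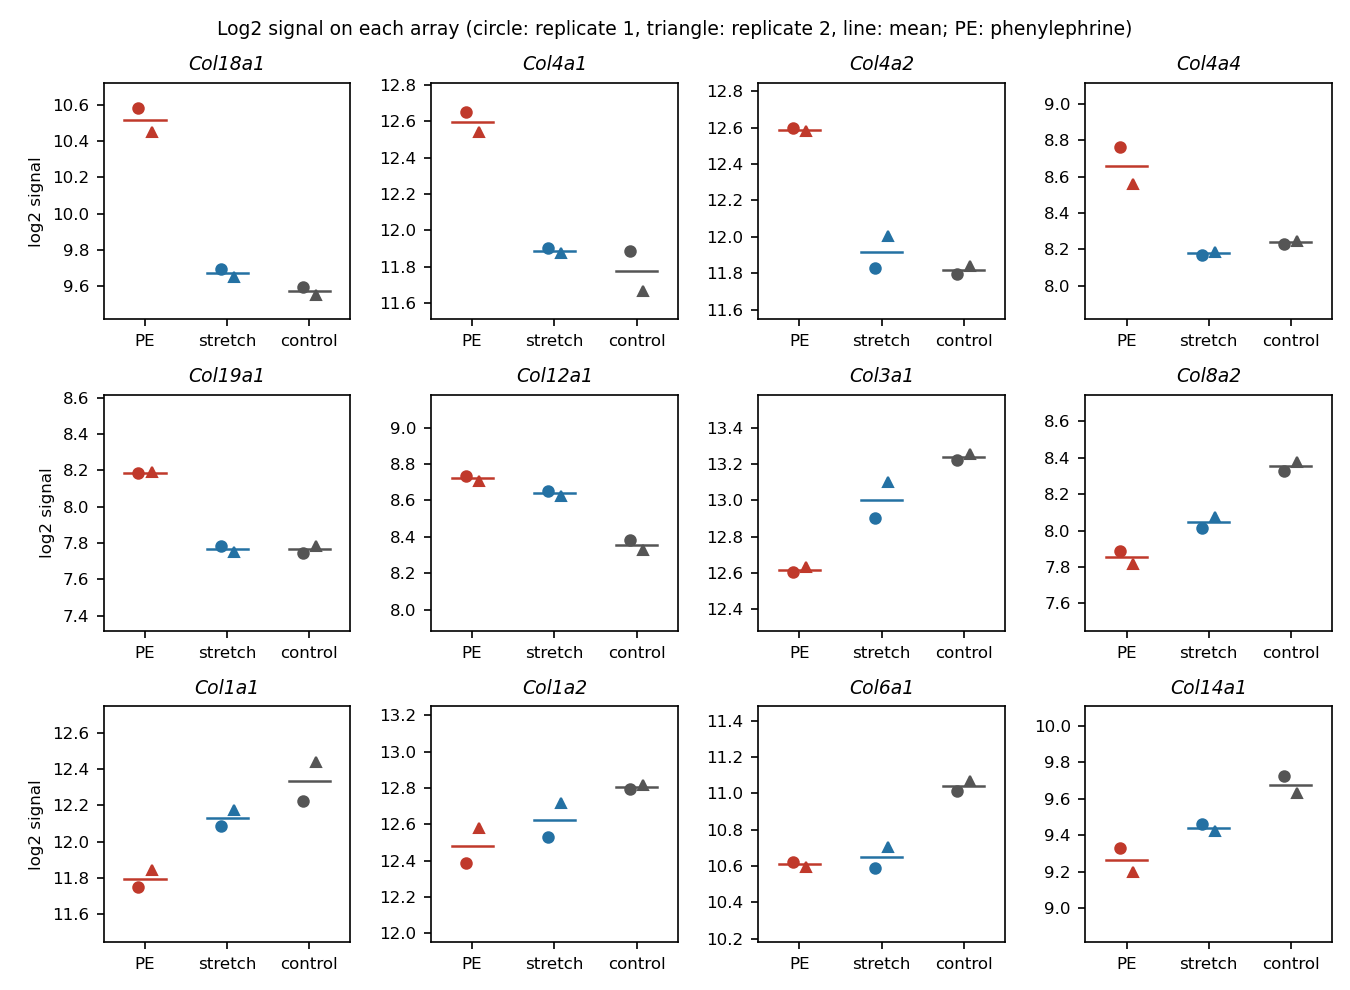
Log2 signal of 12 collagen genes on each array, in panels of equal height, with circles for replicate 1, triangles for replicate 2 and lines for means. Phenylephrine (PE) stands alone at the top for Col18a1, Col4a1, Col4a2, Col4a4 and Col19a1. For Col3a1, Col8a2, Col1a1 and Col14a1 the order from low to high is phenylephrine, stretch, control.

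Of the 11 fibrillar chains, 1 fell with phenylephrine and 0 rose, beside 2.36% and 2.41% of all genes. Col3a1, the chain of type III collagen, read 12.61 and 12.63 log2 with phenylephrine, 12.90 and 13.10 with stretch and 13.22 and 13.26 in control. The 3 conditions did not overlap, with stretch between the others. The fall with phenylephrine was 1.54-fold (-0.62 ± 0.11; adjusted p = 0.0237), and the call was lost in each omission of 1 of the 4 arrays, with estimates between -0.64 and -0.60. The stretch difference of -0.24 ± 0.11 did not pass (adjusted p = 0.942), and neither did the direct difference of 0.38 ± 0.11 (adjusted p = 0.181).

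Type I collagen, the main load-bearing fibril of heart, is made of Col1a1 and Col1a2 chains. Col1a1 read 11.75 and 11.84 log2 with phenylephrine, 12.09 and 12.17 with stretch and 12.22 and 12.44 in control. All phenylephrine arrays were below all controls, and the difference of -0.53 ± 0.12 missed the threshold (adjusted p = 0.0602). Its second probe set gave -0.54 ± 0.11 and passed (adjusted p = 0.0367). Both probe sets put the 3 conditions in the same order. The brightest passed too after quantile normalization (adjusted p = 0.043), with dim probe sets left out (0.0402), without the variance trend (0.031) and with a robust prior (0.0497), and missed the threshold in each omission of an array. Col1a2 read 12.39 and 12.58 with phenylephrine, 12.53 and 12.72 with stretch and 12.79 and 12.82 in control. Its differences were -0.32 ± 0.12 with phenylephrine (adjusted p = 0.232) and -0.18 ± 0.12 with stretch, and neither passed.

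Type V collagen sits inside type I fibrils and sets their width. Its chains Col5a1 and Col5a2 had values on opposite sides of control with phenylephrine, and neither passed. Col5a1 read 11.02 and 10.96 log2 with phenylephrine, 10.56 and 10.55 with stretch and 10.74 and 10.68 in control, so the phenylephrine arrays were the highest and the stretch arrays the lowest. The differences were 0.28 ± 0.11 with phenylephrine (adjusted p = 0.239) and -0.16 ± 0.11 with stretch. Between stretch and phenylephrine the difference was -0.44 ± 0.11 (adjusted p = 0.118), and none of these passed. The direct difference passed after quantile normalization (adjusted p = 0.0238) and without the variance trend (0.0339). With the replicate term it passed as well (0.003), as did the phenylephrine difference (0.0269). A dimmer second probe set of Col5a1 gave 0.10 ± 0.10 with phenylephrine and -0.23 ± 0.10 in the direct comparison. Col5a2 read 11.28 and 10.89 with phenylephrine, 11.20 and 11.02 with stretch and 11.40 and 11.21 in control (-0.22 ± 0.16 for phenylephrine; adjusted p = 0.56), with overlap between conditions. The other 6 fibrillar chains, Col2a1, Col5a3, Col11a1, Col11a2, Col24a1 and Col27a1, had phenylephrine differences of -0.17 to 0.12. Over all 11 fibrillar chains the median was -0.14 with phenylephrine and -0.16 with stretch. The phenylephrine median was -0.15 without phenylephrine replicate 1 and -0.034 without phenylephrine replicate 2. The stretch median was -0.087 without stretch replicate 1 and -0.094 without control replicate 2.

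Col3a1 and Col5a2 are neighbours in the RefSeq table with no other protein-coding gene between them. The same holds for Col4a1 with Col4a2, Col6a1 with Col6a2, Col6a5 with Col6a6 and Col9a1 with Col19a1. With phenylephrine Col4a1 and Col4a2 both rose (0.82 ± 0.12 and 0.77 ± 0.11). Col19a1 rose with phenylephrine while its neighbour Col9a1 had -0.04 ± 0.05.

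Type VI collagen is a trimer of Col6a1, Col6a2 and a further chain such as Col6a3, and it anchors cells to the matrix around them. All 3 chains read lower under both treatments. Col6a1 read 10.62 and 10.60 log2 with phenylephrine, 10.59 and 10.71 with stretch and 11.01 and 11.07 in control. Both treatments lay below control and overlapped each other. The differences were -0.43 ± 0.11 with phenylephrine (adjusted p = 0.0828) and -0.39 ± 0.11 with stretch (adjusted p = 0.42), neither past the threshold. Col6a2 read 10.43 and 10.40 with phenylephrine, 10.41 and 10.56 with stretch and 10.74 and 10.96 in control (-0.43 ± 0.12 and -0.36 ± 0.12). Col6a3 read 9.24 and 9.08 with phenylephrine, 9.37 and 9.31 with stretch and 9.55 and 9.59 in control (-0.41 ± 0.09 and -0.23 ± 0.09). With phenylephrine Col6a3 missed the threshold (adjusted p = 0.0644) and passed after quantile normalization (0.0231), median centring (0.0484), with dim probe sets left out (0.0445), without the variance trend (0.0399) and without phenylephrine replicate 1 (0.0407). Col6a1 passed with phenylephrine without the variance trend (adjusted p = 0.0265). With the replicate term Col6a1 (0.00266), Col6a2 (0.00355) and Col6a3 (0.00162) passed with phenylephrine. In that fit Col6a1 (0.018) and Col6a2 (0.0366) passed with stretch. The direct differences between stretch and phenylephrine were 0.04 ± 0.11, 0.07 ± 0.12 and 0.18 ± 0.09 for Col6a1, Col6a2 and Col6a3. Dimmer second probe sets of Col6a2 and Col6a3, near 8.3 and 8.1 log2, gave 0.02 ± 0.08 and 0.10 ± 0.06 with phenylephrine. Col6a5 and Col6a6 had phenylephrine differences of 0.10 ± 0.08 and 0.00 ± 0.07.

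Col8a2 and Col8a1 are the chains of type VIII collagen, a short-chain network protein of vessel walls and cornea. Col8a2 read 7.89 and 7.82 log2 with phenylephrine, 8.02 and 8.07 with stretch and 8.33 and 8.38 in control, with no overlap among the 3 conditions. It fell 1.41-fold with phenylephrine (-0.50 ± 0.06; adjusted p = 0.00713). The stretch difference was -0.31 ± 0.06 (adjusted p = 0.154), and the signal was below the array median in both treatments. Col8a1 read 8.40 and 8.54 with phenylephrine, 8.47 and 8.57 with stretch and 8.56 and 8.71 in control (-0.17 ± 0.09 and -0.11 ± 0.09), and did not pass.

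Of the fibril-associated chains, Col12a1 and Col19a1 rose with phenylephrine and 0 fell, beside 2.41% and 2.36% of all genes. Col12a1, which bridges fibrils in tissues under load, read 8.74 and 8.71 log2 with phenylephrine, 8.65 and 8.63 with stretch and 8.38 and 8.33 in control. Both treatments lay above control. It rose 1.29-fold with phenylephrine (0.37 ± 0.07; adjusted p = 0.0304), and had 0.28 ± 0.07 with stretch (adjusted p = 0.285). Its 2 dimmer probe sets gave 0.14 ± 0.09 and 0.02 ± 0.08 with phenylephrine, and the call was lost with the mean of all probe sets (0.17 log2). It was also lost in each omission of 1 array, with estimates of 0.34 to 0.39, and in a fit of the 4 arrays compared.

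Col14a1, which binds fibrils and limits their growth, read 9.33 and 9.20 log2 with phenylephrine, 9.46 and 9.42 with stretch and 9.72 and 9.63 in control. Its differences were -0.42 ± 0.10 with phenylephrine (adjusted p = 0.064) and -0.24 ± 0.10 with stretch (adjusted p = 0.832), and its second probe set passed with phenylephrine (-0.32 ± 0.07; adjusted p = 0.0438). The brightest probe set of Col14a1 passed after quantile normalization (adjusted p = 0.0194) and median centring (0.0489). It also passed with dim probe sets left out (0.0438) and without the variance trend (0.0359). The mean of the gene's probe sets passed too (-0.37 log2, adjusted p = 0.0404). Col19a1, a rare chain of basement membrane zones, read 8.19 and 8.19 with phenylephrine, 7.78 and 7.75 with stretch and 7.75 and 7.79 in control. It rose 1.34-fold with phenylephrine (0.42 ± 0.06; adjusted p = 0.00882) and was lower under stretch than under phenylephrine (-0.42 ± 0.06; adjusted p = 0.017), at signals around the array median or below it. The other 6 fibril-associated chains measured, Col9a1, Col9a2, Col9a3, Col16a1, Col20a1 and Col22a1, had phenylephrine differences of -0.04 to 0.05. Col13a1, a transmembrane collagen of cell contacts, read 8.07 and 7.65 with phenylephrine, 7.53 and 7.59 with stretch and 7.65 and 7.52 in control. Its phenylephrine difference of 0.28 ± 0.12 lay mostly in replicate 1 and did not pass (adjusted p = 0.317). The remaining transmembrane chains Col17a1, Col23a1 and Col25a1 had 0.16 ± 0.05, 0.05 ± 0.06 and -0.05 ± 0.08 with phenylephrine, and Col7a1, Col10a1 and Col26a1 had 0.10 ± 0.08, 0.01 ± 0.05 and 0.03 ± 0.10. Limma called 0 of these 6, and Col17a1 alone among them had an unadjusted p under 0.05. Over all 25 other chains the median was 0.03 with phenylephrine and 0.0005 with stretch.

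The 6 collagen genes with an unadjusted p under 0.05 with stretch were Col12a1, which was higher, and Col6a1, Col6a2, Col6a3, Col8a2 and Col14a1, which were lower. Over all genes 1029 of 14217, or 7.24%, had such a p. With phenylephrine 16 of the 41 collagen genes had one, 8 higher and 8 lower, beside 2765 genes or 19.4% of all. Among the 23 collagen genes with a mean at or above the median probe set, 11 differed from control by less than 0.1 log2 with stretch, and 5 did so with phenylephrine. Over all genes, of any signal, the quartiles of the difference were -0.059 and 0.069 with stretch. With phenylephrine they were -0.12 and 0.085. The 5 genes that were lower under stretch than under phenylephrine were Col18a1, Col4a1, Col4a2, Col4a4 and Col19a1. That count was 0 without stretch replicate 1 and 0 without stretch replicate 2. It was 2 without phenylephrine replicate 1 (Col18a1 and Col19a1) and 2 without phenylephrine replicate 2 (Col18a1 and Col4a4).

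Further probe sets gave a reading that the choice of the brightest had not used. For Col18a1 the second rose by 1.08 ± 0.09 with phenylephrine (adjusted p = 0.00224) and was -0.93 ± 0.09 between stretch and phenylephrine (adjusted p = 0.00627). For Col4a1 the second gave 0.83 ± 0.12 (adjusted p = 0.0105) and -0.80 ± 0.12 (adjusted p = 0.023). Over the 17 further probe sets of 14 genes, the median gap to the brightest was 0.11 log2 for phenylephrine and 0.07 log2 for stretch, and the widest was 0.51 log2 for phenylephrine and 0.32 log2 for stretch.

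**Figure D3:**
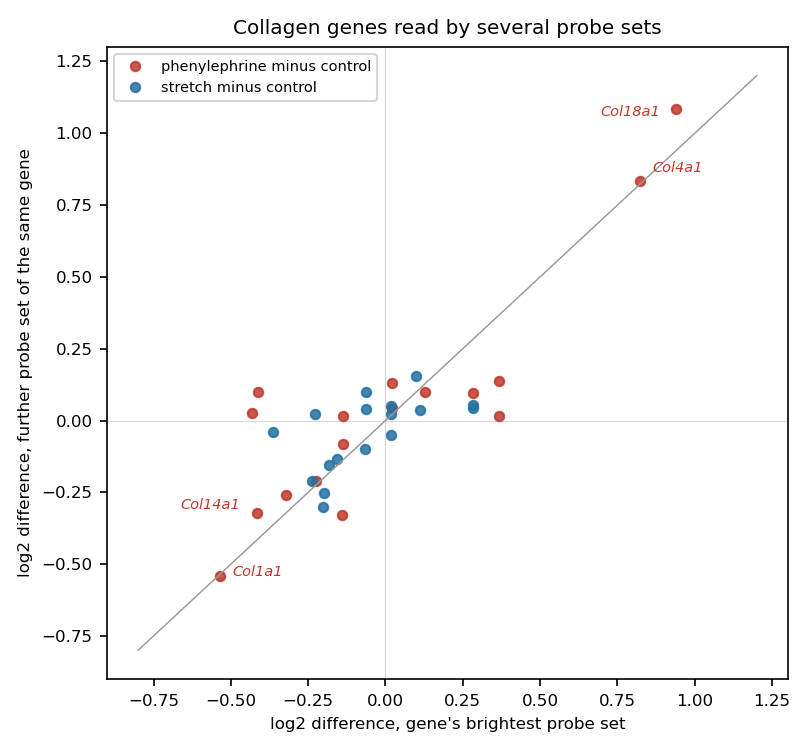
Log2 difference from control in the brightest probe set of a gene (horizontal) and in each further probe set of that gene (vertical), for 17 further probe sets of 14 genes, with phenylephrine in red and stretch in blue. The line marks equal values. Col18a1 (0.94 and 1.08), Col4a1 (0.82 and 0.83) and Col1a1 (-0.53 and -0.54) lie near it, and several dim probe sets lie near 0 on the vertical axis.

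Collagen chains are hydroxylated and folded in the endoplasmic reticulum before they are secreted. Of 18 measured genes of this machinery, 1 rose with phenylephrine and 0 fell, beside 2.41% and 2.36% of all genes. With stretch limma called 0, and 1 was at an unadjusted p under 0.05, beside 7.24% of all genes. The gene that rose was P4ha1, a catalytic subunit of prolyl 4-hydroxylase, without which the helix is not stable. P4ha1 read 11.29 and 10.99 log2 with phenylephrine, 10.46 and 10.45 with stretch and 10.05 and 9.98 in control. All 3 conditions were apart, in that order from high to low. The rise with phenylephrine was 2.19-fold (1.13 ± 0.13; adjusted p = 0.00488), the stretch difference was 0.44 ± 0.13 (adjusted p = 0.473), and the direct difference was -0.69 ± 0.13 (adjusted p = 0.0524). The list's median was 0.12 with phenylephrine and -0.01 with stretch. Serpinh1, the collagen chaperone Hsp47, which was chosen after its values were seen, had 0.29 ± 0.11 with phenylephrine (adjusted p = 0.249).

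Limma called 0 of 6 measured genes of procollagen processing and crosslinking with phenylephrine or with stretch. Unadjusted p-values were under 0.05 for 2 of them with phenylephrine, where 19.4% of all genes had such a p, and for 0 with stretch. Pcolce, an enhancer of the protease that trims procollagen, had the largest difference (-0.45 ± 0.12 with phenylephrine; adjusted p = 0.0868). Limma also called 0 of 6 genes of export and transcription with either treatment. Unadjusted p-values were under 0.05 for 3 of those 6 with phenylephrine, a count to be read beside the same 19.4%, and for 0 with stretch. The largest value was that of Klhl12, an adaptor for large export vesicles (-0.38 ± 0.15 with phenylephrine; adjusted p = 0.27). Among 7 collagen receptors, Adgrg1, an adhesion receptor that binds type III collagen, fell with phenylephrine (-0.58 ± 0.09; adjusted p = 0.015), and 0 rose. Over all genes 2.36% fell and 2.41% rose. With stretch limma called 0 of the 7 receptors, 2 of which were at an unadjusted p under 0.05, beside 7.24% of all genes.

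Among 10 genes of collagen breakdown, Timp1 rose and Mmp9 fell with phenylephrine, where 2.41% of all genes rose and 2.36% fell. Timp1, an inhibitor of metalloproteinases, read 11.96 and 11.68 log2 with phenylephrine, 11.31 and 11.18 with stretch and 10.72 and 10.51 in control (1.21 ± 0.14; adjusted p = 0.00552). The gelatinase gene Mmp9 read 8.02 and 8.01 with phenylephrine, 8.36 and 8.14 with stretch and 8.64 and 8.62 in control (-0.61 ± 0.08; adjusted p = 0.00893). With stretch neither passed (0.63 ± 0.14 and -0.38 ± 0.08). Among 10 proteins that bind fibrils, 3 fell with phenylephrine and 0 rose: Dpt (-0.96 ± 0.10; adjusted p = 0.00431), Ogn (-0.79 ± 0.15; adjusted p = 0.0289) and Fmod (-0.65 ± 0.08; adjusted p = 0.00627), which all bind or space collagen fibrils. The list's median was -0.38 with phenylephrine and -0.27 with stretch, where limma called 0. With stretch 5 were at an unadjusted p under 0.05, beside 7.24% of all genes.

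**Figure D4:**
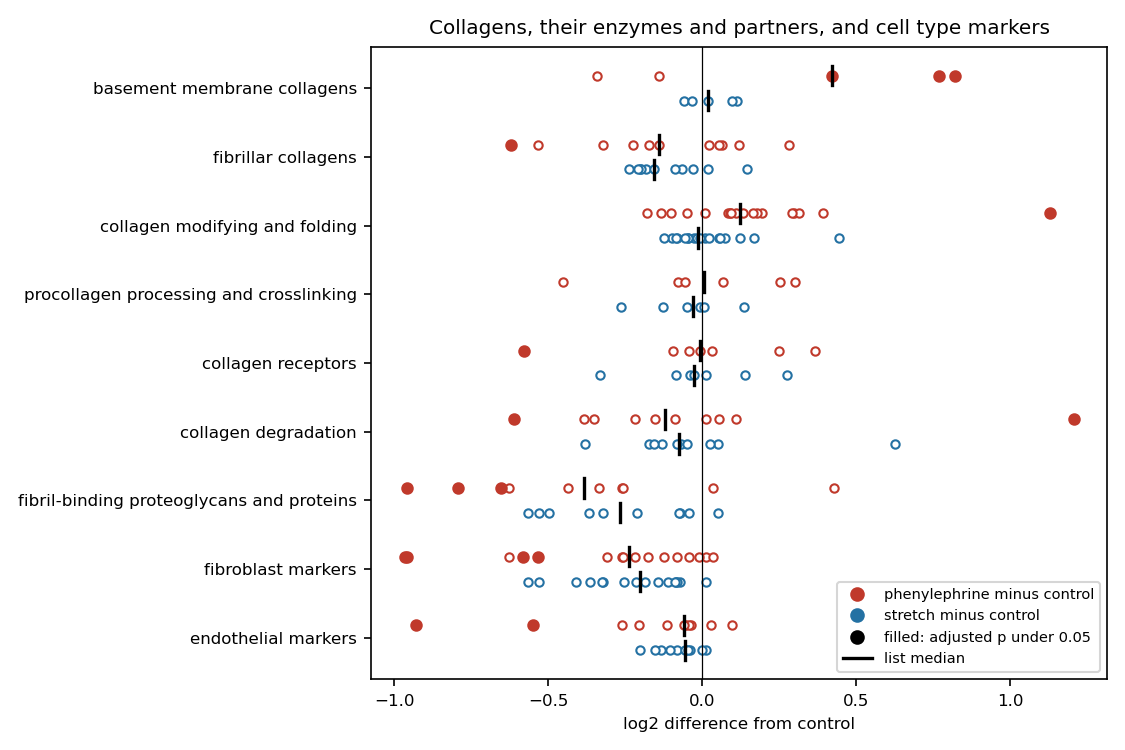
Log2 difference from control of each gene in the collagen classes, in lists of collagen enzymes, receptors and binding proteins, and in lists of fibroblast and endothelial markers, with phenylephrine in red and stretch in blue. Filled points passed an adjusted p of 0.05 and black bars are list medians. The basement membrane collagens have a median of 0.42 with phenylephrine, and the fibroblast markers one of -0.24.

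Markers of other cells moved in the same arrays, and their counts are to be read beside all genes. Of all genes, 2.41% rose and 2.36% fell with phenylephrine, and 7.24% had an unadjusted p under 0.05 with stretch. Of 16 fibroblast markers that are not collagens, 4 fell with phenylephrine and 0 rose: Mfap4 (-0.97 ± 0.13), Dpt (-0.96 ± 0.10), Postn (-0.58 ± 0.11) and Pdgfra (-0.53 ± 0.10). Dpt, Dcn, Lum and Fbln1 are also in the list of fibril-binding proteins, Ddr2 in that of receptors and Fap in that of breakdown. The lists are therefore not separate readings. The median of the list was -0.24 with phenylephrine and -0.20 with stretch, where limma called 0 and 6 were at an unadjusted p under 0.05. Their summed linear signal was 27641 to 31161 with phenylephrine, 30535 to 31480 with stretch and 35795 to 38974 in control. Col3a1, Col1a1, Col1a2, Col8a2, Col14a1, Col6a1, Col6a2 and Col6a3 read lower than control in the arrays where this sum was lower than in control. Not every fibrillar chain did. Of the 11 fibrillar chains, 9 were below control with stretch and 2 above it. With phenylephrine 6 were below control and 5 above it. Of those 5, Col5a1 had 0.28 ± 0.11, and 0.10 ± 0.10 in its second probe set. The others, Col2a1, Col5a3, Col11a2 and Col27a1, had 0.02 to 0.12. Sparc of the fibril-binding list was above control with phenylephrine (0.43 ± 0.12). Fewer fibroblasts and less RNA per fibroblast cannot be told apart in bulk samples, and the part of either in the collagen values was not tested.

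Of 11 endothelial markers, Kdr (-0.93 ± 0.12; adjusted p = 0.00853) and Emcn (-0.55 ± 0.07; adjusted p = 0.0079) fell with phenylephrine and 0 rose. The shares of all genes, 2.36% and 2.41%, apply here and to the lists that follow. The summed signal of the list was 4540 to 4559 with phenylephrine, 5030 to 5044 with stretch and 5327 to 5342 in control. The list's median difference was -0.06 with phenylephrine and -0.06 with stretch. Kdr, with mean signals of 9.26 log2 with phenylephrine, 10.06 with stretch and 10.19 in control, had the largest difference in the list. It also had the list's highest mean over the 6 arrays, so the sum leans on this gene. Of 11 smooth muscle and pericyte markers, 4 rose with phenylephrine: Cnn1 (2.55 ± 0.13), Cspg4 (1.30 ± 0.10), Acta2 (0.96 ± 0.12) and Mcam (0.64 ± 0.10), while Abcc9 fell (-1.12 ± 0.19). With stretch Cnn1 rose too (1.45 ± 0.13; adjusted p = 0.00502). The summed signal of the list was 12154 to 13953 with phenylephrine, 11997 to 12317 with stretch and 10552 to 11084 in control. Newborn myocytes also express several of these genes, and the part of any cell type in the rise of the basement membrane chains was not tested. Of the 12 myocyte markers 1 rose with phenylephrine, Nppa (1.05 ± 0.12; adjusted p = 0.00504), and 0 fell. Among 11 macrophage, 4 Schwann cell and neuron and 5 mesothelial markers, Cd68 of the macrophage list fell (-0.52 ± 0.11; adjusted p = 0.0498) and Krt18 of the mesothelial list rose (0.56 ± 0.09; adjusted p = 0.0191) with phenylephrine. With stretch limma called 0 in these 3 lists, with 1 macrophage and 1 mesothelial marker at an unadjusted p under 0.05, beside 7.24% of all genes.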

How the data were processed

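The deposited table gives log2 expression, 1 value per probe set and array. How the authors corrected, summarised and normalized it is not given in the labels or headers. The scale was taken from the values, which no natural log of a scanner signal could reach. Per the labels' protocols, pooled RNA was amplified by in vitro transcription. Of 31099 rows, 57 array controls were left out. Genes were named from the platform annotation of 2016, and the 41 members' Entrez identifiers all matched RefSeq GRCr8.

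All 6 arrays entered 1 limma fit with a mean for each group (limma 3.58.1 in R 4.3.3; eBayes with a mean-variance trend, 3 residual and 4.8 prior degrees of freedom, two-sided). Simulated data with known changes were used to test it. With 2 arrays a side, no exact permutation p can be below 0.333, so none was used. Precision is limited by the number of arrays. Members and lists were chosen with earlier results of these data known. Of 149 list entries 127 were found. Named genes are the major heart collagens, every collagen past the threshold, the 4 largest differences per comparison, and up to 4 called members of each list, or else its largest value. Alternatives covered scaling, dim probe sets, the variance prior, the arrays fitted, probe set choice, a replicate term and omission of each array.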

Additional observations from a re-analysis of the deposited data

How the results depend on the processing

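The number of arrays limits every count. Collagen genes called with phenylephrine numbered 8, and between 6 and 12 under the scaling, filter, prior, probe set and 4-array alternatives; omitting an array gave 0 to 7. With stretch the count was 0 in each of these. Between stretch and phenylephrine it was 5, with 4 when dim probe sets were left out, 6 after quantile normalization, 2 with only the 4 arrays compared and 0 to 2 with an array omitted. Fewer arrays fitted is part of each omission. A replicate block gave 17 calls with phenylephrine, 4 with stretch (Col6a1, Col6a2 and Col8a2 lower, Col12a1 higher) and 10 between treatments. Same-numbered arrays deviated together, with correlations of 0.49 (phenylephrine and control), 0.67 (stretch and control) and 0.53 (stretch and phenylephrine). The labels do not say what a number marks, so the origin of this shared deviation is not known. Over all probe sets, the calls with stretch were 107, against 386 after quantile normalization, 1028 with the block and 26 to 47 with an array omitted, and the share of rises was 88.8%, against 72.5% after quantile normalization. With phenylephrine they were 1117, against 2790, 5384, 661 with only 4 arrays and 189 to 1249 with an array omitted. Between treatments they were 413, against 1527, 3734, 230 and 51 to 473.

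With dim probe sets left out, the median difference was -0.22 for fibrillar collagens with phenylephrine and -0.10 for other collagens with stretch, and with the mean of all probe sets the fibrillar median with phenylephrine was -0.067. With an array omitted, the medians with phenylephrine were -0.15 to -0.034 (fibrillar), 0.32 to 0.52 (basement membrane) and 0.014 to 0.067 (other), and with stretch -0.13 to -0.087 (fibrillar), -0.0039 to 0.077 (basement membrane; -0.017 with the mean of all probe sets) and -0.031 to -0.0042 (other). Between stretch and phenylephrine they were -0.062 to 0.044 (fibrillar), -0.58 to -0.38 (basement membrane) and -0.041 to 0.0075 (other). Uncalled differences between stretch and phenylephrine changed sign for Col5a2 (-0.013 after quantile normalization, -0.0066 with the mean of all probe sets, -0.17 to 0.22 with an array omitted), Col6a1 (-0.0054 after quantile normalization, -0.020 to 0.096 with an array omitted), Col6a2 (-0.0033 to 0.14) and Col8a1 (-0.019 to 0.12). The cause of these changes was not tested.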
